A study of Sus scrofa with 24 samples.

Results

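The genes described here are the interferons, their receptor chains, the STAT and IRF transcription factors and the interferon-induced effectors that the pig array carries under symbols of these families. They were picked by symbol, from a fixed pattern of family names applied to the array's probe annotation, and the pattern used no measured value. The choice of these families was made with earlier results of these data known. The pattern found 40 gene symbols, covered by 65 probes, among 5830 symbols on the array. For the 18 genes with more than 1 probe the brightest probe was used. Of the 40 genes, 38 cleared a background filter (signal well above background in no fewer than 4 samples of 24) and were tested among 33486 features; IFNB1 and ISG20 were well above background in 0 of 24 samples and were not tested.

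The study used a pig model of stenosis of arteriovenous haemodialysis grafts. Vein was taken at the anastomosis of the graft and from the segment downstream of it, and the control tissue was external jugular vein. Each site was sampled on day 5 and day 14 after graft placement, with 4 biological replicates, which gave 24 samples of total RNA in 6 groups of 4. The study compared vein regions that are prone and resistant to neointimal hyperplasia, the inward growth of cells and matrix that narrows such grafts. Breed, age and sex were not stated, nor whether the 3 sites of a replicate number, or its 2 days, came from the same animal.

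Interferons are cytokines that bind receptors made of paired chains, and the bound receptors activate kinases that phosphorylate STAT proteins. Phosphorylated STAT complexes, with IRF factors, enter the nucleus and switch on a wide set of genes whose products degrade viral RNA, hold back viral replication, cut proteins into peptides and carry these peptides to class I molecules of the antigen presentation machinery. In the vessel wall, endothelium, smooth muscle and infiltrating leukocytes can all respond to interferons, so a transcript measured in whole vein can come from any of them. STAT factors also serve other cytokines and growth hormones, and their activation does not need a change in their own transcript.

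All levels below are normalised log2 intensities of a sample's own dye channel, so that a difference of 1 is a doubling, and all tests are limma fits with p-values adjusted by Benjamini-Hochberg over all features, with 0.05 as the threshold. The array design put every control sample in the green dye and every anastomosis and downstream sample in the red dye, so that dye and site cannot be told apart in a comparison with the control. Control and anastomosis samples of the same number and day shared an array. From 56.9% to 80.2% of probes were well above background in a sample, and replicates 1 and 2 were read with another version of the image extraction protocol than replicates 3 and 4. The labelled tissue was checked with fixed marker lists, in which contractile smooth muscle averaged 14.4 to 15.2 in the day 5 controls and endothelium 11.2 to 11.6.

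One library stood apart from the other controls of its day. The day 14 control of replicate 2 averaged 14.5 over 8 adipocyte markers, against 8.32, 9.97 and 8.84 in the other day 14 controls, and 11.7 over 9 smooth muscle markers, against 14.0, 15.1 and 14.9. Over the 38 interferon-related genes, the median of its levels minus each gene's median over the 24 samples was 0.77, the highest of the samples, with the other day 14 controls at -0.10, -0.16 and -0.12. The adipocyte markers were also high at day 14 in anastomosis replicate 3 (14.1) and in downstream replicates 2 (13.9) and 4 (12.8). Results that turn on the day 14 control of replicate 2 are given with and without it, and leaving it out was added after seeing the data.

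Few of the 38 genes differed between sites by the test. At day 5, IRF3, IFNAR1, STAT5B and TAP2 were higher at the anastomosis than in the control and IRF1 was lower, which is 13.2% of the genes, where 19.4% of all features (9.08% higher, 10.3% lower) and 29.8% of the features with a gene symbol passed. At day 14, STAT5B was higher at the anastomosis and IRF1 lower, 5.26% of the genes, where 8.78% of all features (4.76% higher, 4.03% lower) and 11.8% of those with a gene symbol passed. The downstream vein differed from the control in 0 of 38 genes at day 5, where 8.21% of all features passed, and in 0 of 38 at day 14, where 0.911% passed; at an unadjusted p under 0.05 there were 4 and 5 such genes (10.5% and 13.2%, against 25.1% and 15.0% of all features). The anastomosis and the downstream vein differed in 0 of 38 genes at both days, and 0% of all features passed in either; at an unadjusted p under 0.05 there were 0 and 4 genes (0% and 10.5%, against 10% and 14.1% of all features). The share of these genes that passed was at or under that of all features in each comparison. The anastomosis and downstream comparisons of a day use the same control samples. Anastomosis and control values did not overlap for 4 of the 38 genes at day 5 and 2 at day 14, where 14.8% and 6.11% of all features did not. Downstream and control values did not overlap for 1 gene at day 5 and 0 at day 14, where 7.67% and 1.92% of all features did not.

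**Figure D1:**
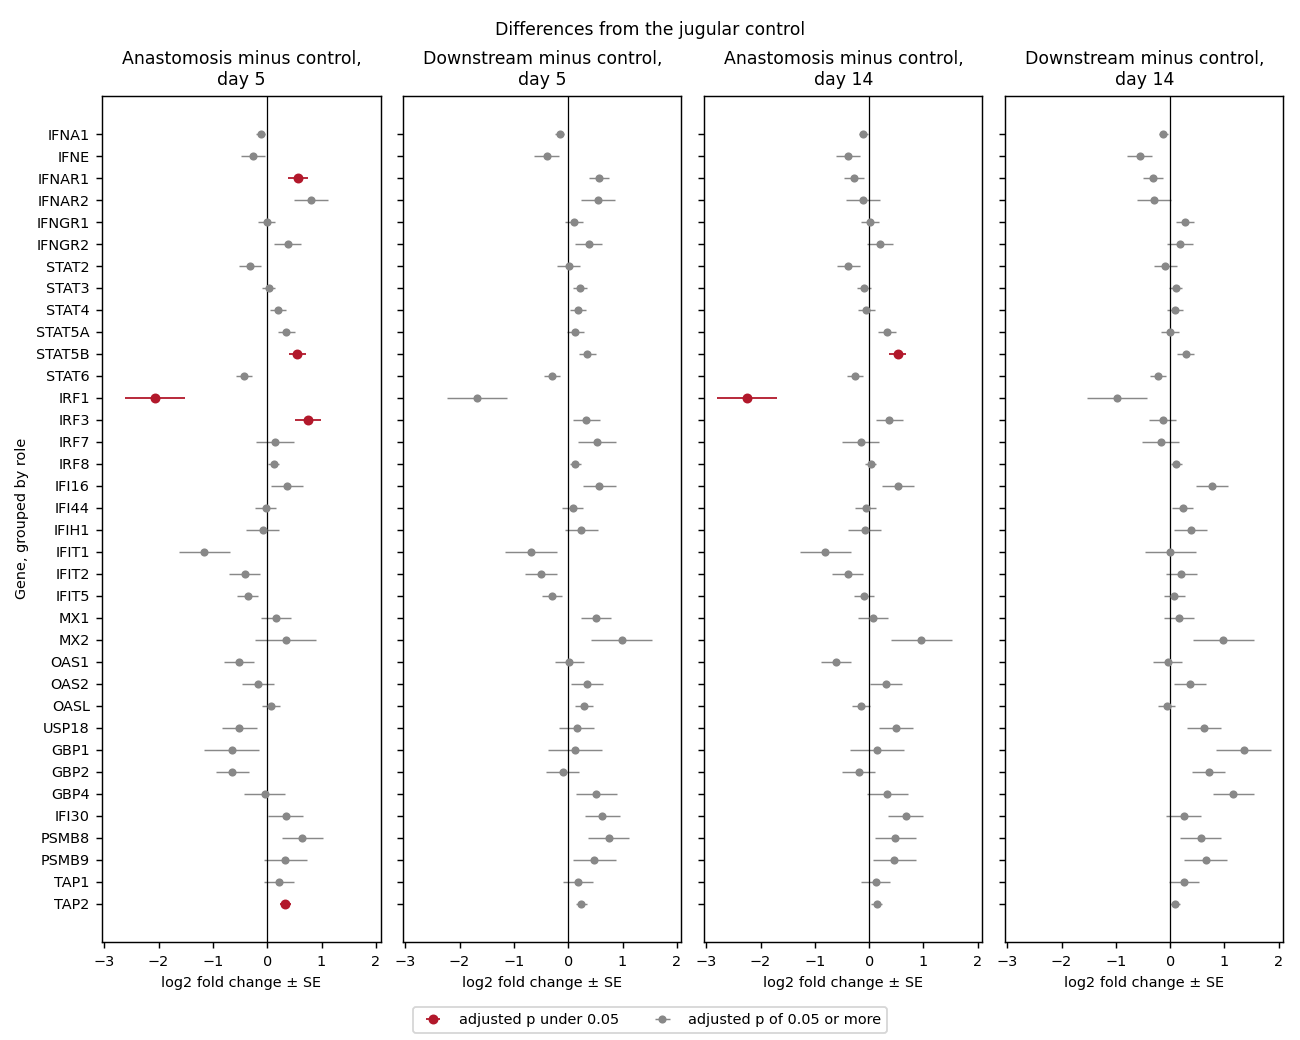
Log2 fold change ± SE of the named genes (rows, grouped by role) at the anastomosis and in the downstream vein, each minus the jugular control, at day 5 and day 14. Red points passed an adjusted p of 0.05; IRF1 lies far to the left of the other genes in 3 of the 4 panels, at -2.06, -1.68 and -2.25.

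The interferon ligands were close to the detection limit. IFNA1, a type I interferon, was well above background in 8 of 24 samples, and IFNE, the epithelial type I interferon, in 18. IFNE measured 6.55, 7.24, 6.58 and 6.39 at the day 5 anastomosis and 6.51, 6.36, 6.38 and 6.98 downstream, against 6.55, 7.51, 6.89 and 6.87 in the day 5 controls, and the groups overlapped. At day 14 its difference from the control was -0.39 ± 0.23 (SE) at the anastomosis and -0.56 ± 0.23 downstream, with adjusted p-values of 0.311 and 0.254. For IFNA1 at day 5 the anastomosis was not well above background on any array, while 2 of the 4 controls were. The mean of the controls was 1.09-fold that of the anastomosis, and the difference did not pass (adjusted p = 0.378). A probe for the type II interferon was not analysed here.

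Among the receptor chains, IFNAR1 was the one that passed. IFNAR1, which with IFNAR2 forms the receptor for all type I interferons, measured 10.50, 10.25, 10.20 and 10.64 at the day 5 anastomosis and 10.24, 10.26, 10.44 and 10.60 downstream, against 9.98, 9.53, 9.53 and 10.25 in the day 5 controls. The lowest anastomosis sample lay just under the highest control, and every pair on an array went the same way. IFNAR1 was higher at the anastomosis by 0.57 ± 0.18 (adjusted p = 0.0400, n = 4 per group in the limma fit) and differed downstream by 0.56 ± 0.18 (adjusted p = 0.0702). A second IFNAR1 probe gave a larger difference, 0.86 ± 0.19 at the anastomosis (adjusted p = 0.00598) and 0.70 ± 0.19 downstream (adjusted p = 0.0359). The probes are shown because they are separate measurements of 1 gene on chromosome 13, with no stretch longer than 5 bases in common.
IFNAR1, brightest probe: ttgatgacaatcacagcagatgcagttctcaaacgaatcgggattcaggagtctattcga
IFNAR1, second probe: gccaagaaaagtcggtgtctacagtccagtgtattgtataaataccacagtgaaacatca

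At day 14 IFNAR1 did not pass. It measured 8.92, 9.84, 9.60 and 10.45 at the anastomosis and 9.10, 9.38, 9.84 and 10.32 downstream, against 9.72, 10.41, 9.69 and 10.09 in the controls, with full overlap of the groups. Its day 14 differences were -0.28 ± 0.18 and -0.32 ± 0.18. The second probe gave 0.03 ± 0.19 and 0.34 ± 0.19 there, so the probes differed in sign at day 14. Any constant dye offset cancels in the change of these differences between days, which was -0.85 ± 0.26 for the anastomosis (adjusted p = 0.417) and -0.88 ± 0.26 for the downstream vein (adjusted p = 0.657), neither past the threshold. In all, 0 of 38 genes passed for the change of either difference, where 0% of all features did, with 2 and 1 genes at an unadjusted p under 0.05 (5.26% and 2.63%, against 8.33% and 7.52% of all features).

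IFNAR2, the other type I chain, followed the same order without passing the test. It measured 10.49, 10.39, 10.34 and 10.28 at the day 5 anastomosis and 9.89, 10.37, 10.003 and 10.20 downstream, against 9.79, 9.20, 9.16 and 10.10 in the controls. The anastomosis values all lay above the controls, with a difference of 0.81 ± 0.31 (adjusted p = 0.0834). At day 14 the difference was -0.12 ± 0.31 at the anastomosis and -0.30 ± 0.31 downstream. The chains of the type II receptor, IFNGR1, which binds the ligand, and IFNGR2, which is needed for signalling, averaged 12.57 and 11.84 over all samples, and their 4 differences from the control at each gene lay between -0.01 and 0.38. None of these passed.

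**Figure D2:**
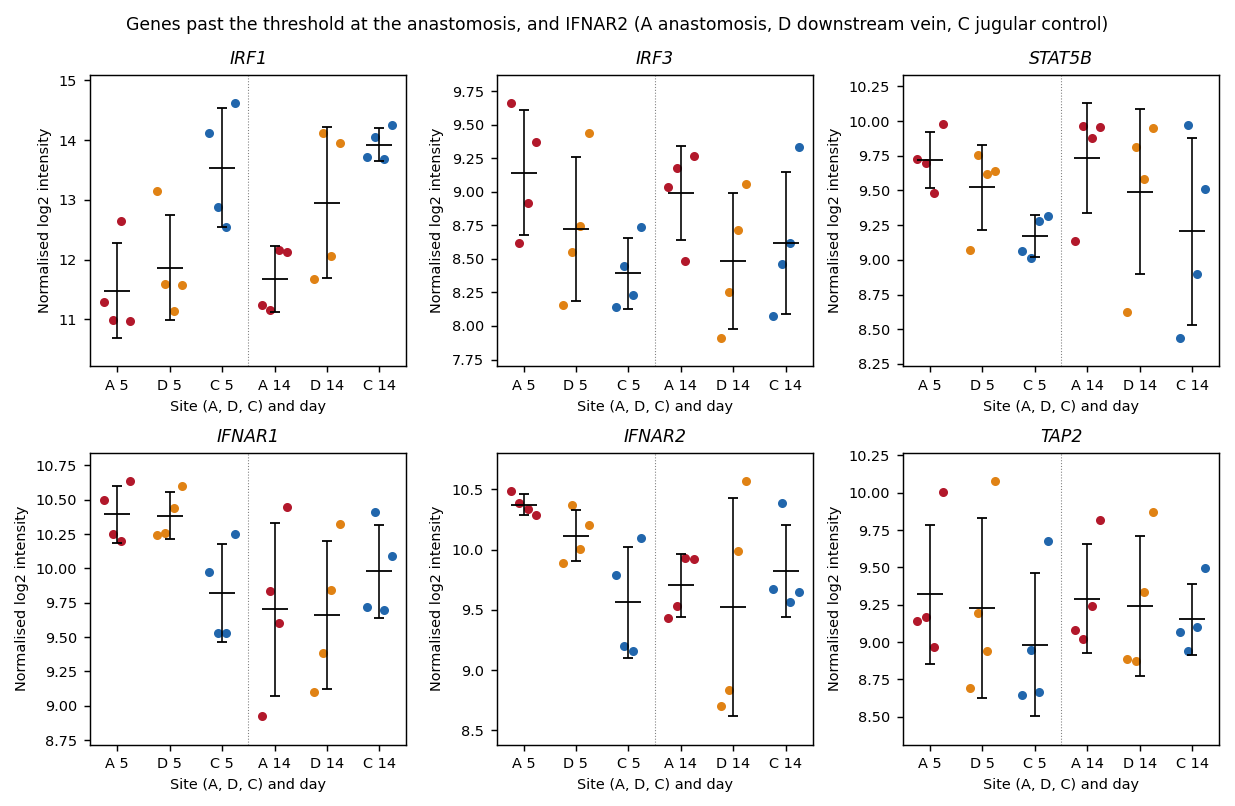
Normalised log2 intensity per sample (points; replicates 1 to 4 from left to right within a group) with mean ± SD (n = 4) of the genes that passed at the anastomosis, and IFNAR2. IFNAR1 and IFNAR2 average higher at the day 5 anastomosis (A 5) and downstream (D 5) than in the day 5 controls (C 5). Single samples overlap with the controls except for IFNAR2 at the anastomosis, and of these differences only IFNAR1 at the anastomosis passed. IRF1 averages 11.48 and 11.67 at the anastomosis against 13.54 and 13.92 in the controls at day 5 and day 14.

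Of the 7 STAT factors, STAT5B alone passed, at both days. STAT5B carries signals of growth hormone, prolactin and several interleukins. At day 5 it measured 9.72, 9.70, 9.48 and 9.98 at the anastomosis and 9.07, 9.75, 9.62 and 9.64 downstream, against 9.07, 9.01, 9.28 and 9.32 in the controls, and the anastomosis and control values did not overlap. The anastomosis was higher by 0.55 ± 0.16 (adjusted p = 0.0235), and the downstream difference was 0.35 ± 0.16 (adjusted p = 0.176). At day 14 it measured 9.14, 9.96, 9.88 and 9.95 at the anastomosis and 8.63, 9.81, 9.58 and 9.95 downstream, against 8.44, 9.97, 8.90 and 9.51 in the controls. The groups overlapped, and the anastomosis was higher in 3 of 4 pairs, by 0.53 ± 0.16 (adjusted p = 0.0496). Without the day 14 control of replicate 2 this difference was 0.69 (adjusted p = 0.0136), and with no replicate block it did not pass at either day (adjusted p = 0.359 and 0.524).

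STAT5B was represented by a pair of probes on chromosome 12, printed here because they differed in size of response. The dimmer probe gave 0.27 ± 0.12 at the day 5 anastomosis and 0.17 ± 0.12 at day 14, less than the brighter one and short of the threshold (adjusted p = 0.143 and 0.429).
STAT5B, brightest probe: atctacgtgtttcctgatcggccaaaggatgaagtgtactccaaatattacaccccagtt
STAT5B, second probe: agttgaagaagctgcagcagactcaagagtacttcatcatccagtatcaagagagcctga

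STAT2, a factor of type I interferon signalling, gave -0.32 ± 0.21 and -0.38 ± 0.21 at the anastomosis at day 5 and day 14. STAT5A, the close relative of STAT5B, had values at the day 14 anastomosis of 7.68, 7.60, 7.70 and 7.48, all above the 7.23, 7.31, 7.20 and 7.42 of the controls, a difference of 0.33 ± 0.16 (adjusted p = 0.229). STAT6, the factor of interleukin-4 signalling, was on the low side in all 4 comparisons, with the largest difference at the day 5 anastomosis (-0.42 ± 0.15, adjusted p = 0.0617).

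IRF1 gave the largest difference of the 38 genes. It is an interferon-inducible transcription factor, first known as an activator of the interferon beta promoter. At day 5 it measured 11.30, 10.996, 12.65 and 10.98 at the anastomosis and 13.14, 11.59, 11.14 and 11.57 downstream, against 14.13, 12.87, 12.54 and 14.63 in the controls. In 3 of 4 pairs the anastomosis was the lower, and replicate 3 was level, at 12.65 against 12.54. The anastomosis was lower by the fit, at -2.06 ± 0.55 (adjusted p = 0.0175), and the downstream difference of -1.68 ± 0.55 did not pass (adjusted p = 0.0734) although the downstream sample was the lower in all 4 numbers.

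At day 14 IRF1 measured 11.25, 11.16, 12.16 and 12.13 at the anastomosis and 11.68, 14.12, 12.06 and 13.95 downstream, against 13.71, 14.06, 13.68 and 14.25 in the controls. Anastomosis and control did not overlap, while downstream replicates 2 and 4 lay at the level of the controls and replicates 1 and 3 at that of the anastomosis. The anastomosis differed from the control by -2.25 ± 0.55 (adjusted p = 0.0235), and by -2.31 (adjusted p = 0.0353) without the day 14 control of replicate 2. The downstream difference was -0.97 ± 0.55 (adjusted p = 0.438). The direct difference between anastomosis and downstream vein was -0.38 ± 0.55 at day 5 and -1.28 ± 0.55 at day 14 (adjusted p = 0.852 and 0.320).

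The IRF1 difference at the anastomosis stayed negative in every alternative run, though its size and call depended on some of them; downstream at day 14 it was 0.25 with each channel centred on its median. Replicates 1 and 2 alone gave -2.36 and -2.68 at day 5 and day 14, and replicates 3 and 4 alone gave -1.77 and -1.82, each short of the threshold with 2 pairs. Leaving out replicate 4 ended the call at both days (adjusted p = 0.185 and 0.133), as did leaving out replicate 1 or 2. In the authors' deposited value table the day 5 difference was -1.09 (adjusted p = 0.129) and the day 14 difference -2.07 (adjusted p = 0.0170). Of the variance of IRF1 over the 24 samples, 54.5% lay between sites and 17.9% between the 8 blocks of a number and day, where the medians over the 38 genes were 11.7% and 57.0%. Of 9 contractile smooth muscle markers, 7 were lower at the day 5 anastomosis and 0 at day 14, with 3 and 0 downstream. The shares of all features that passed there were 19.4%, 8.78%, 8.21% and 0.911%. The markers averaged 12.1 to 13.5 in the day 5 anastomosis samples against 14.4 to 15.2 in the controls, and 12.5 to 12.8 at day 14 against 14.0, 11.7, 15.1 and 14.9. Markers and IRF1 parted in some day 14 samples: with IRF1 at 14.12 downstream replicate 2 averaged 12.2 over the markers, with 11.68 downstream replicate 1 averaged 13.8, and with 14.06 the control of replicate 2 averaged 11.7. At day 5, anastomosis replicate 3 (13.5) and downstream replicate 1 (13.8) had the highest marker averages of their groups and also the highest IRF1. Control replicate 3 of day 5 had the highest marker average of its group, 15.2, and the lowest IRF1. The part of smooth muscle in the IRF1 result was not tested. In whole vein, fewer cells of a type and less RNA per cell cannot be told apart.

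The gene had 1 probe, so no other probe could be set beside it. The start of its sequence is printed because the largest difference rests on it (chromosome 2, the first 30 of 60 bases).
IRF1, probe: cactaagtcgtgtgcgaccacacatgtata

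IRF3, which is present before infection and activates type I interferon genes once phosphorylated, measured 9.66, 8.62, 8.92 and 9.37 at the day 5 anastomosis and 8.16, 8.55, 8.74 and 9.44 downstream, against 8.14, 8.45, 8.23 and 8.74 in the controls. It was higher at the anastomosis in 4 of 4 pairs although the groups overlapped, by 0.75 ± 0.25 (adjusted p = 0.0467). Replicate 1 had the widest gap, and without it the difference was 0.49 (adjusted p = 0.129). Leaving out the day 14 control of replicate 2 also put it just short of the threshold (adjusted p = 0.0521). At day 14 the anastomosis values were 9.03, 9.18, 8.48 and 9.27 and the downstream values 7.91, 8.25, 8.72 and 9.06, against 8.07, 8.46, 8.61 and 9.33 in the controls, and neither site passed (0.37 ± 0.25 and -0.13 ± 0.25). IRF3 also had 1 probe, on chromosome 6, which is printed since the call has no second probe behind it.
IRF3, probe: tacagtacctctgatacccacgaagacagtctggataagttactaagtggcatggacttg

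IRF7, the factor that amplifies type I interferon production, overlapped between all groups. At day 5 it measured 10.57, 10.84, 11.08 and 11.06 at the anastomosis and 10.77, 11.84, 10.95 and 11.54 downstream, against 10.86, 10.54, 10.40 and 11.18 in the controls. At day 14 it measured 11.01, 11.69, 11.50 and 11.25 at the anastomosis and 10.005, 12.17, 11.29 and 11.93 downstream, against 11.21, 13.14, 10.81 and 10.93 in the controls, where replicate 2 was the sample that stood apart. The 4 differences from the control ran from -0.17 to 0.53. IRF8, a factor of macrophage and dendritic cell lineages, lay near background, at 6.49, 6.15, 6.38 and 6.42 at the day 5 anastomosis and 6.59, 6.12, 6.38 and 6.40 downstream, against 6.44, 6.07, 6.03 and 6.40 in the controls. At day 14 IRF8 measured 6.48, 6.18, 6.38 and 6.36 at the anastomosis and 6.19, 6.48, 6.61 and 6.48 downstream, against 6.49, 6.36, 6.19 and 6.26 in the controls. It was well above background in 12 of 24 samples, and its differences of 0.03 to 0.13 were within the spread.

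IRF9, the DNA-binding factor that joins STAT2 in the type I transcription complex, was reached only through its accession, and so fell outside the symbol pattern. Its brightest probe measured 10.27, 10.02, 10.34 and 10.15 at the day 5 anastomosis and 10.15, 10.41, 10.15 and 9.96 downstream, against 10.18, 10.44, 10.09 and 10.26 in the controls. At day 14 it measured 10.35, 10.73, 10.68 and 10.25 at the anastomosis and 10.15, 10.23, 10.70 and 10.22 downstream, against 10.02, 10.70, 10.38 and 10.08 in the controls. The groups overlapped in every comparison of this probe, and its differences from the control lay between -0.08 and 0.21. Of the other IRF9 probes, one gave -0.02 to 0.17, and the other -0.14 to 0.07 with a larger value downstream at day 14, -0.40 ± 0.11 (adjusted p = 0.0955), where the brightest gave 0.03 ± 0.13.

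The antiviral effectors and sensors were the largest role, with 12 tested genes, and 0 of them passed in any comparison. At the day 5 anastomosis 4 of 12 were above the control and the median difference was -0.13, against 0.00 for all features. Downstream at day 5, 9 of 12 were above the control, with a median of 0.20. At day 14 the numbers were 5 of 12 with a median of -0.07 at the anastomosis, and 10 of 12 with a median of 0.22 downstream. Set directly against the downstream vein, 1 of 12 was higher at the day 5 anastomosis (median -0.33) and 0 of 12 at day 14 (median -0.21), none past the threshold.

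MX1, a dynamin-like GTPase that blocks influenza and other RNA viruses, was bright in every sample. It measured 13.47, 13.45, 13.26 and 12.90 at the day 5 anastomosis and 13.72, 14.79, 12.91 and 13.05 downstream, against 13.71, 13.17, 12.48 and 13.06 in the controls. Day 14 values of MX1 were 12.44, 13.51, 13.46 and 13.36 at the anastomosis and 12.85, 13.39, 13.06 and 13.87 downstream, against 12.65, 14.01, 12.79 and 13.06 in the controls. MX1 passed in no comparison, with differences from the control of 0.06 to 0.51 and an SE of 0.28. MX2, the related GTPase, had a wider range of 4.01 log2 units over the samples, and its 3 largest differences from the control, 0.96 to 0.99, had an SE of 0.56.

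IFIT1, which binds foreign RNA caps and blocks translation, went the other way. It measured 8.96, 8.80, 8.51 and 8.07 at the day 5 anastomosis and 9.45, 10.31, 8.01 and 8.46 downstream, against 10.39, 9.69, 9.43 and 9.46 in the controls. All 4 anastomosis values lay under all 4 controls, and the difference of -1.16 ± 0.47 did not pass (adjusted p = 0.105). With the day 14 control of replicate 2 left out, the same difference had an adjusted p of 0.0465. IFIT2, of the same family, was lower downstream than in the controls at day 5 in 4 of 4 pairs without overlap (6.63, 6.38, 6.61 and 6.64 against 6.70, 6.93, 7.23 and 7.42), a difference of -0.50 ± 0.29 (adjusted p = 0.299). Of all features, 7.67% did not overlap in that comparison, and 14.8% did not in that of the day 5 anastomosis.

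The remaining antiviral genes did not pass either. The RNA sensor IFIH1 gave differences of -0.08 to 0.38, the DNA sensor IFI16 of 0.36 to 0.77, and IFI44 of -0.06 to 0.23. IFIT5 gave -0.36 to 0.08, OAS2 -0.18 to 0.36, OASL -0.15 to 0.29, and USP18, the protease that removes ISG15 from proteins and damps the type I receptor, -0.51 to 0.62. Among the factors above, STAT3 gave -0.09 to 0.22 and STAT4 -0.05 to 0.20. None of these passed in any comparison.

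OAS1, the enzyme that makes the signal for RNA decay, had probes of opposite sign. Its brighter probe gave -0.52 ± 0.27 at the day 5 anastomosis and its dimmer probe 0.42 ± 0.42 there, and at day 14 they gave -0.61 ± 0.27 and 0.41 ± 0.42, none past the threshold. The sequences are printed because the direction depends on which is read, both on chromosome 14 with no stretch over 5 bases in common. The first 30 bases of the brighter probe are given.
OAS1, brighter probe: cctgggaacttacatatgccacatgtgggg
OAS1, dimmer probe: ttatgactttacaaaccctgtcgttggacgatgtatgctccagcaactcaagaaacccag

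Over the 18 genes with several probes, all probes of a gene had the same sign in 12 at the day 5 anastomosis, 12 at the day 14 anastomosis, 13 downstream at day 5 and 11 downstream at day 14. The remaining genes, like OAS1, had probes of opposite sign.

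The guanylate-binding proteins GBP1, GBP2 and GBP4, GTPases that attack vacuoles of intracellular pathogens and are typical targets of the type II interferon, varied widely between samples. GBP1 measured 11.05, 10.65, 10.43 and 10.38 at the day 5 anastomosis and 12.97, 11.58, 10.39 and 10.70 downstream, against 12.43, 10.79, 10.54 and 11.38 in the controls. Day 14 values of GBP1 were 11.38, 11.62, 12.05 and 11.44 at the anastomosis and 12.64, 13.05, 13.95 and 11.67 downstream, against 12.58, 12.93, 10.73 and 9.65 in the controls. The anastomosis samples lay close together while the downstream and control samples spread over more than a unit. GBP2 measured 9.53, 9.34, 9.16 and 9.28 at the day 5 anastomosis, all under the 10.64, 9.96, 9.66 and 9.63 of the controls, a difference of -0.64 ± 0.30 (adjusted p = 0.159).

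Downstream at day 14, all 3 guanylate-binding genes were above the control, at 1.35 ± 0.50 for GBP1, 0.71 ± 0.30 for GBP2 and 1.16 ± 0.38 for GBP4, with adjusted p-values of 0.217, 0.281 and 0.161. Without the day 14 control of replicate 2 the differences were 1.80 ± 0.51, 0.95 ± 0.31 and 1.497 ± 0.39 (adjusted p = 0.0755, 0.122 and 0.0595). The controls there divided by number: replicates 1 and 2 averaged 11.5 and 11.8 over the 3 genes, and replicates 3 and 4 averaged 9.82 and 9.16. The downstream averages did not divide that way, at 11.46, 12.01, 12.56 and 10.59 in replicates 1 to 4. Replicates 3 and 4 share an image extraction version. In these alone, GBP1, GBP4 and GBP2 were higher downstream by 2.62, 2.20 and 1.43, past the threshold in that fit. PSMB8 (1.71) and IFI16 (1.34) passed too, where 5.40% of all features did. For the 3 guanylate-binding genes these differences are measured from the low controls just given, so that fit is no separate test of them. In replicates 1 and 2 alone 0 of 38 genes passed in this comparison, nor did any feature of the array (0%). The median over the 38 genes was -0.21 there, against 0.57 in replicates 3 and 4.

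The antigen-processing genes had positive differences from the control, 1 of them past the threshold. TAP1 and TAP2 form the peptide pump into the endoplasmic reticulum, PSMB8 and PSMB9 are catalytic subunits of the immunoproteasome, and IFI30 is a lysosomal thiol reductase that opens disulfide bonds of antigens. All 5 were above the control in each of the 4 comparisons, with medians of 0.34 and 0.46 at the anastomosis at day 5 and day 14, and of 0.48 and 0.25 downstream. The pairs were less even at day 14: the average over the 5 genes was below the control in anastomosis replicate 2 (10.82 against 10.98) and in downstream replicates 1 and 2 (10.50 and 10.53 against 10.82 and 10.98). TAP2 alone passed, at the day 5 anastomosis, where it measured 9.14, 9.16, 8.97 and 10.01, with 8.69, 9.19, 8.94 and 10.08 downstream and 8.65, 8.95, 8.66 and 9.67 in the controls. The groups overlapped because replicate 4 was high at every site, and within the pairs the anastomosis was higher in 4 of 4, by 0.34 ± 0.10 (adjusted p = 0.0246).

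The TAP2 call rests on 1 of 3 probes. The other probes gave 0.05 ± 0.25 and 0.03 ± 0.24 at the day 5 anastomosis, and the mean of the 3 gave 0.14 (adjusted p = 0.647). All 3 are printed (chromosome 7; of the second the first 30 bases), since they share no stretch longer than 6 bases.
TAP2, brightest probe: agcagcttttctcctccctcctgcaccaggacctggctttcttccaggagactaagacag
TAP2, second probe: catccccattttatggatgagaaaactgaa
TAP2, dimmest probe: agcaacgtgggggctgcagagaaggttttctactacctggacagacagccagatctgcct

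PSMB9 measured 12.02, 11.67, 12.01 and 12.02 at the day 5 anastomosis and 12.34, 12.05, 11.81 and 12.10 downstream, against 11.78, 11.38, 11.40 and 11.82 in the controls. Day 14 values of PSMB9 were 12.72, 11.93, 12.49 and 13.04 at the anastomosis and 11.9999, 12.28, 14.34 and 12.32 downstream, against 12.74, 12.41, 11.89 and 11.29 in the controls. The groups overlapped at both days, and the 4 differences of 0.33 to 0.65 had an SE of 0.40. Macrophage markers moved in the same comparisons, with 6 of 14 higher at the anastomosis at both days, 5 of 14 downstream at day 5 and 0 of 14 downstream at day 14. Of all features, 19.4% and 8.78% passed at the anastomosis at day 5 and day 14, and 8.21% and 0.911% downstream. The macrophage markers averaged 11.5 to 12.4 per gene in the day 5 anastomosis samples against 10.6 to 11.2 in the day 5 controls. Their part in the antigen-processing genes was not tested.

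Between the days, none of the 38 genes passed within a site. The day 5 and day 14 arrays of replicates 1 and 2 were scanned on different dates, and those of replicate 3 in different scans of 1 date. In these replicates the day of sampling and the scan cannot be told apart. Only replicate 4 had both days in the same scan. At the anastomosis 0 of 38 passed, where 0.00597% of all features did, with 10 genes (26.3%) at an unadjusted p under 0.05, against 8.29% of all features. Downstream 0 of 38 passed (0% of all features), with 3 genes (7.89%, against 4.46%) at an unadjusted p under 0.05, and in the control 0 of 38 (0% of all features), with 0 genes against 1.93%. At day 14 relative to day 5 the fitted value was above 0 for 25 of the 38 genes at the anastomosis, 26 downstream and 32 in the control, with medians of 0.18, 0.14 and 0.23, against 0.01, 0.01 and -0.01 for all features. Without the replicate 2 control of day 14, the control's median was 0.01. The largest differences at the anastomosis were MX2 at 1.11 ± 0.35, GBP1 at 0.99 ± 0.21 and GBP4 at 0.96 ± 0.26, with adjusted p-values of 0.430, 0.270 and 0.376.

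**Figure D3:**
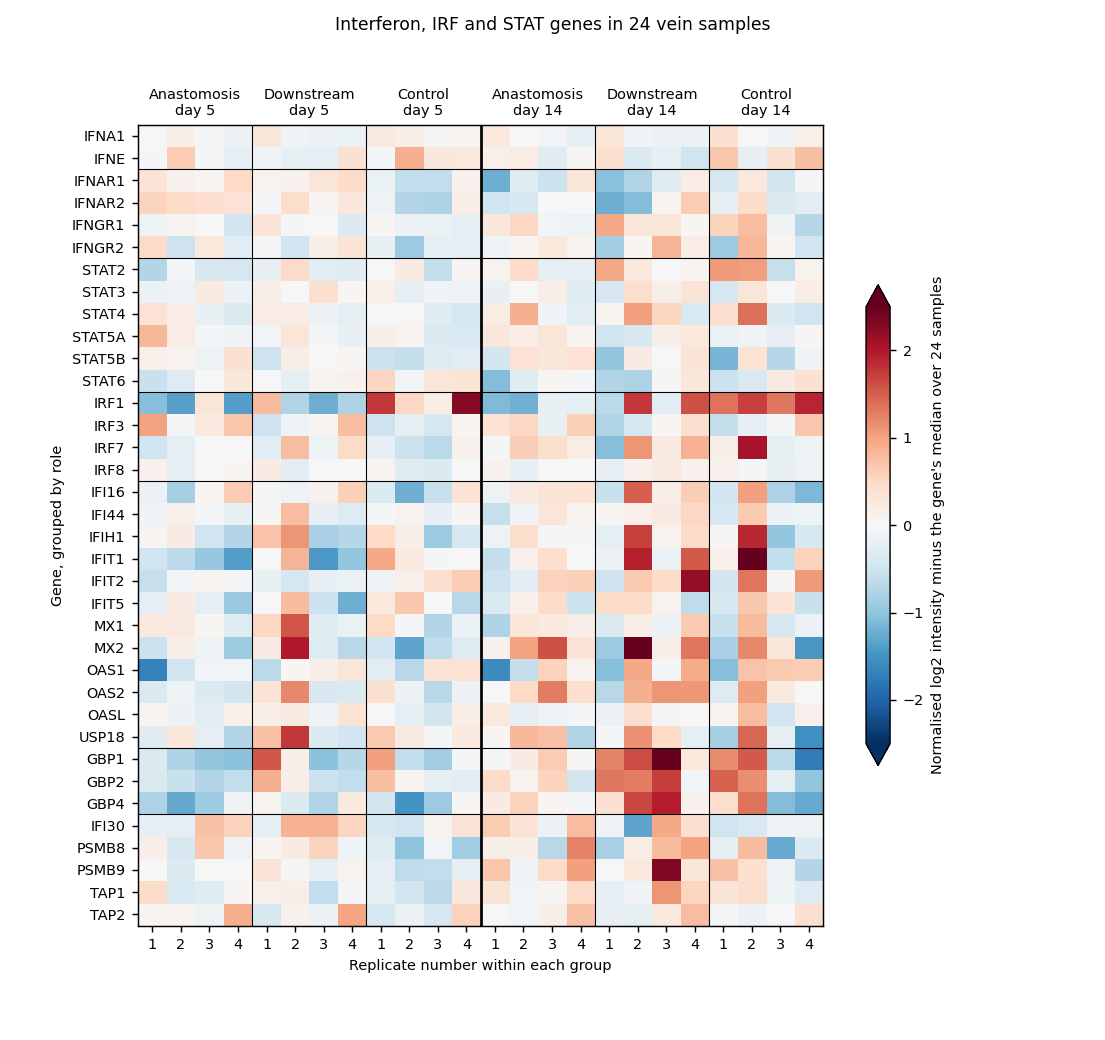
Normalised log2 intensity of the named genes (rows, grouped by role) in the 24 samples (columns, replicates 1 to 4 of each group) minus the gene's median over the samples, with colours cut at 2.5 log2 units either way. Of the 38 genes tested, the day 14 control of replicate 2 has 15 more than 1 unit above their median and the day 14 downstream samples of replicates 2, 3 and 4 have 11, 7 and 6, and IRF1 lies above its median of 12.35 in every control and below it in all but 1 anastomosis sample.

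Most of the variation in these genes lay between samples of a group rather than between sites. A median of 57.0% of a gene's variance lay between the 8 blocks of a number and day, and 11.7% between sites, near the 58.9% and 9.02% of all features. The median SD over the 4 samples of a group was 0.31 and 0.36 at the anastomosis at day 5 and day 14, 0.36 and 0.62 downstream, and 0.35 and 0.62 in the control. For the features with a gene symbol the same medians were 0.32 and 0.34, 0.34 and 0.43, and 0.32 and 0.43. The SD was larger at day 14 than at day 5 for 29 of 38 genes downstream, 29 in the control and 24 at the anastomosis. An SD over 1 was found for 4 genes downstream at day 5 and 5 at day 14, for 0 and 8 in the control, and for 0 at the anastomosis on either day. Without the control of replicate 2, the day 14 control had a median SD of 0.40 (0.35 for the features with a symbol) and an SD over 1 for 2 genes.

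**Figure D4:**
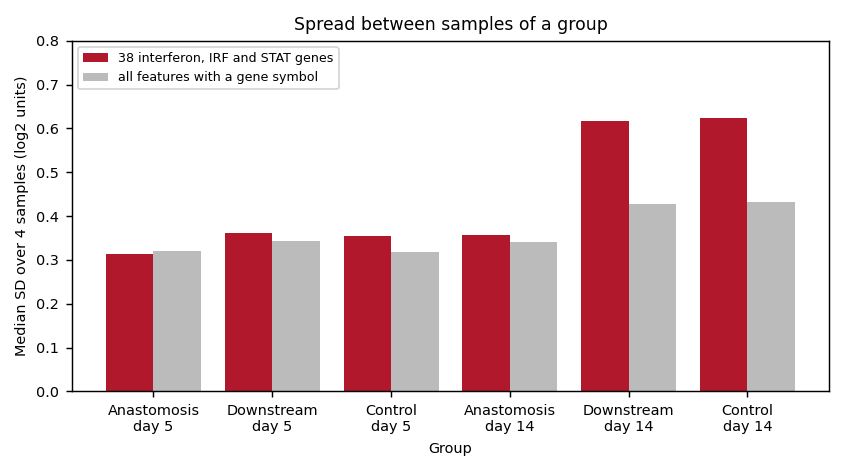
Median over genes of the SD between the 4 samples of a group, in log2 units, for the 38 genes (red) and for all features with a gene symbol (grey). The red bars reach 0.62 in the day 14 downstream and control groups (0.40 in the control without replicate 2) and stay between 0.31 and 0.36 in the other 4 groups.

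The widest values of day 14 came from a few libraries. The control of replicate 2 held the highest value of 5 genes and 1 of the 3 highest values of 19, with 15 genes more than 1 unit above their median. IFIT1 was 12.54 in that sample, against 9.57, 8.83 and 10.03 in the other day 14 controls. Downstream replicate 3 held the highest value of 9 genes, among them GBP1 at 13.95, GBP4 at 12.11 and PSMB9 at 14.34, while its IFIT1 was only 9.29. Downstream replicates 2 and 4 had IFIT1 at 11.40 and 10.98 and PSMB9 at 12.28 and 12.32.

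**Figure D5:**
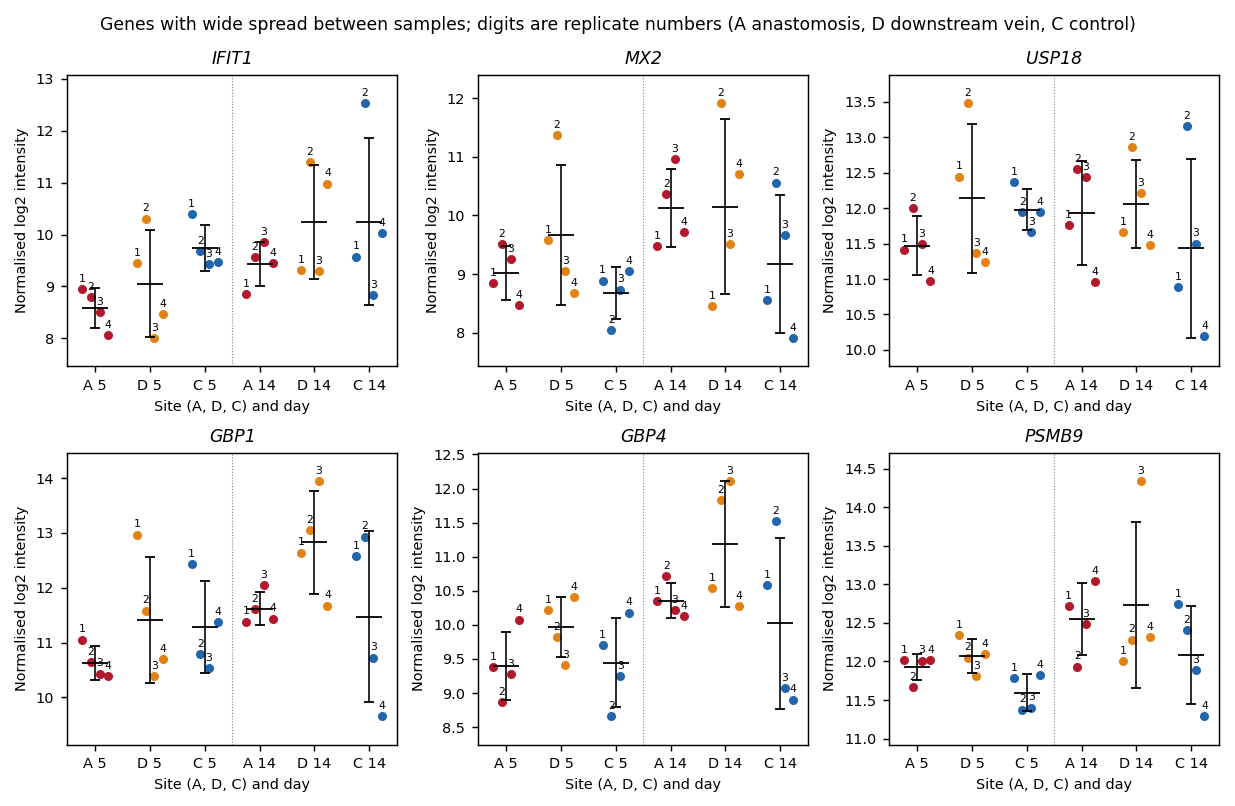
Normalised log2 intensity per sample (points with replicate numbers) with mean ± SD (n = 4) of 6 genes with wide spread. IFIT1, MX2 and USP18 are highest at day 14 in replicate 2 of the downstream (D 14) or control (C 14) group, while GBP1, GBP4 and PSMB9 are highest in downstream replicate 3.

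Cell markers varied along with these libraries. The antiviral genes averaged 11.3 in the day 14 control of replicate 2, 11.2 and 10.8 in downstream replicates 2 and 4 and 10.6 in anastomosis replicate 3, the 4 highest averages of day 14. The same samples had the 4 highest averages over 8 adipocyte markers at day 14, at 14.5, 13.9, 12.8 and 14.1, where the other day 14 samples lay between 8.32 and 10.5. All 8 adipocyte markers were measured. At day 5, downstream replicate 2 had the highest antiviral average of its day, 10.9, and the highest adipocyte average, 11.1. The guanylate-binding genes averaged 12.56 and 12.01 in downstream replicates 3 and 2 and 11.8 in the day 14 control of replicate 2, and 15 T and NK cell markers averaged 9.59, 9.28 and 9.99 in them, the 3 highest of the 24 samples in both measures. The 2 measured B and plasma cell markers averaged 8.15 in the day 14 control of replicate 2 and 7.52 in downstream replicate 2 of day 14, and 6.22 to 6.90 in the other samples. These pairings were noticed in the data, and the part of these cell types was not tested.

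Lists of genes of the same pathway outside the symbol pattern were read in the same fits. Of 15 further interferon-induced genes, CXCL9, a chemokine induced by type II interferon, was lower at the day 5 anastomosis (-1.47 ± 0.40, adjusted p = 0.0191), and the others passed in no comparison with the control. RSAD2, IFIT3 and IFITM1 are antiviral genes found only through other names. Their differences at the day 5 anastomosis were -0.39 ± 0.37, -0.37 ± 0.52 and 0.08 ± 0.23, none past the threshold. ISG20L2, also found only through another name, was lower at the day 14 anastomosis (-0.50 ± 0.14, adjusted p = 0.0455). It passed in no other comparison with the control. Of 8 kinases and brakes of interferon signalling, such as JAK1 and JAK2, 0 passed in any of the 4 comparisons with the control. Of all features, 19.4% and 8.78% passed at the anastomosis at day 5 and day 14, and 8.21% and 0.911% downstream. CXCL9 made up 6.67% of its list at the day 5 anastomosis.

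Antigen presentation genes outside the pattern passed mostly at the day 14 anastomosis. There 8 of 21 (38.1%) were higher and 0 lower, where 8.78% of all features and 11.8% of those with a symbol passed, led by CD74, the invariant chain of class II molecules, at 1.37 ± 0.33, and the class II genes SLA-DRB1, SLA-DQA1 and SLA-DRA at 1.28, 1.26 and 1.20. At the day 5 anastomosis 2 of 21 (9.52%, under the 19.4% of all features) were higher, the chaperones CALR and PDIA3 at 1.19 ± 0.21 and 0.90 ± 0.20. Downstream, 0 of 21 passed at day 5, where 8.21% of all features did, and the class I gene SLA-1 was higher at day 14, at 0.83 ± 0.15 (adjusted p = 0.0223). Macrophage markers were among the genes higher at the same site, as given above.

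Of 14 nucleic acid sensors and adaptors, 3 were higher at the day 5 anastomosis and 2 lower, 35.7% of the list, where 19.4% of all features and 29.8% of those with a symbol passed. TRAF3 and TBK1, which lead from the sensors to the phosphorylation of IRF3, were higher by 1.16 ± 0.29 and 0.59 ± 0.15, and IRAK4 by 0.42 ± 0.10, while TICAM2 and TRAF6 were lower, at -0.56 ± 0.18 and -0.47 ± 0.12. At day 14 TLR9 (7.14% of the list, against 8.78% of all features) was higher at the anastomosis, by 0.37 ± 0.11, and downstream 0 of 14 passed at either day. Of 19 other cytokines and receptors that signal through STATs, 4 (21.1%) passed at the day 5 anastomosis and 2 (10.5%) at day 14. The shares were 19.4% and 8.78% of all features, and 29.8% and 11.8% of those with a symbol. IL4R, the receptor chain upstream of STAT6, and LIF were higher at the day 5 anastomosis, by 1.04 ± 0.19 and 0.67 ± 0.15. PRLR, the prolactin receptor upstream of STAT5, was not well above background in any anastomosis sample, against 4 of 4 controls at day 5 and 3 of 4 at day 14, so that it was at least 1.53-fold and 1.82-fold higher in the control (adjusted p = 0.0482 and 0.0189). LIFR was lower at the anastomosis at day 5 (-0.42 ± 0.11), and IL6ST at day 14 (-0.79 ± 0.20). Downstream 0 of 19 passed at either day. Of all features, 8.21% passed downstream at day 5 and 0.911% at day 14.

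The signs of small differences depended on how the dyes were set level. Centring each channel on its median over all probes, in place of loess and quantile normalisation, moved the median difference of all features from the control by 0.64 to 0.68 and put 32, 32, 34 and 36 of the 38 genes past the threshold on the high side (anastomosis day 5 and day 14, downstream day 5 and day 14), where 82.0%, 78.0%, 82.4% and 84.5% of all features passed. Under that setting 98.8% to 99.9% of the features that passed were higher than the control, against 46.9%, 54.2%, 39.0% and 69.8% under the normalisation used here. IRF1 stayed below the control, at -0.69 and -0.96, and did not pass (adjusted p = 0.258 and 0.123), while IRF3, IFNAR1, STAT5B and TAP2 stayed above it. The comparisons of anastomosis with downstream vein share the red dye and gave 0 passing genes under it too.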

How the data were processed

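Total RNA of 24 pig vein samples was measured on 16 two-colour Agilent arrays. The green channel of the downstream arrays belongs to no sample in the labels. It entered the normalisation of those arrays and was not tested. Downstream and control samples therefore lay on different arrays. The deposited array files hold spot intensity values that, per the file headers, Agilent Feature Extraction (10.5.1.1) wrote; the authors' deposited value table holds log2 values, and the sources used here do not say how they were made. Spots were background-corrected with normexp (offset 50), normalised by loess within and Aquantile between arrays, split into channels and converted to log2 levels with limma 3.58.1 in R 4.3.3. Control spots and outlier spots were left out, spots of a probe were averaged, and the brightest probe stood for a symbol. A feature was kept if no fewer than 4 of the 24 samples were well above background (33486). Sites were compared in 1 limma fit of all samples with each number and day as a block (8 blocks, 12 residual degrees of freedom), and days within a site without a block, in 11 comparisons. The block follows the data: deviations from the group means of same-numbered samples of a day had correlations of 0.222 to 0.815 on a shared array and 0.191 to 0.758 on different arrays, while pairs of the same site and number correlated above 0.1 between days in 11 of 12 cases (lowest 0.0742). Pairing was to be used only where every pair lay above 0.1, so days were not paired. For sites, the p-values set a difference against the spread left within the blocks of these samples. For days, they set it against the spread between the samples of a group.

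Every gene of the pattern was eligible to be named; some are counted with the others but are not reported here singly or drawn. Values per sample were given for up to 10 genes per site comparison with the largest changes past the threshold and for IRF1, IRF7, IRF8, IRF9 and MX1, and other genes with wide or non-overlapping groups were chosen after their values were seen. From each list of further genes, up to 4 past the threshold were named. The genes and lists were chosen with earlier results of these data known. The fit was tested on simulated data. The number of arrays limits the precision. Alternatives covered the normalisation, the probe rule, the background filter, the block, the scan day and each replicate. Probe sequences came from the deposited files, and chromosomes from the RefSeq gene table of Sscrofa11.1.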

Additional observations from a re-analysis of the deposited data

Results flagged for a closer look

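In 14 of 216 groups of 4 samples, 1 sample lay far from the other 3 by Dixon's test (critical value 0.829), where chance gives about 1 in 20 groups. The day 14 control of replicate 2 was high for IRF7 (13.14, next 11.21) and IFNAR2 (10.39, next 9.67), and the day 14 control of replicate 1 was low for OAS1 (11.60, next 13.29). Among day 14 downstream samples, replicate 3 was high for PSMB9 (14.34, next 12.32), and replicate 1 was low for OAS2 (12.64, next 14.23) and high for IFNA1 (6.62), near background. In the day 14 anastomosis group, replicate 1 was low for MX1 (12.44, next 13.36) and STAT5B (9.14, next 9.88). At day 5, the anastomosis had a low PSMB9 in replicate 2 (11.67) and a high STAT3 in replicate 3 (8.51). The day 5 downstream vein had a low IFIT2 (6.38) and a high STAT2 (12.30) in replicate 2 and a high IFNA1 (6.61) in replicate 1, and the day 5 control of replicate 2 was low for IFNGR2 (11.01).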

How the results depend on the processing

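Over the counts of passing genes, 136 alternatives stayed within 1.5 times the value given and 32 did not. Over single genes, 302 kept the call, 53 lost it, 15 gained one and 5 reversed. A change of sign was counted as reversed only where the value passed in either fit, and otherwise stayed among the 302. Leaving out 1 replicate number or 1 library gave 0 to 6 passing genes at the day 5 anastomosis against control, 0 to 3 at day 14, and 0 to 1 downstream at day 5. The fit without the replicate block gave 1 gene, IRF1, at the anastomosis on either day. Centring each channel on its median gave 32, 32, 34 and 36 genes (anastomosis day 5 and 14, downstream day 5 and 14), and turned round IRF7 (1.03) at the day 14 anastomosis, IRF9 at day 5 (1.08 at the anastomosis, 0.90 downstream) and IRF7 downstream at day 14 (0.91). Centring over the tested features, added after seeing the data, gave 14, 12, 11 and 11 genes, where 43.4%, 49.2%, 25.8% and 30.2% of all features passed. Of all passing features 42.6%, 32.5%, 40.0% and 22.5% were higher, and IRF8 was at -0.51 at the day 14 anastomosis. Between days, the replicate number as a block gave 0 genes at each site, as without it. The deposited value table gave 3 genes at the day 5 anastomosis, 5 downstream at day 5 and 4 between days at the anastomosis. The shares of all features that passed there were 25.7%, 19.8% and 9.26%. Processed signals gave 1 at the day 14 anastomosis (8.84% of all features), and the mean of all probes gave 1 there and 1 downstream at day 5. Replicates 1 and 2 alone gave 0 at the anastomosis on either day; replicates 3 and 4 alone gave 1 and 1 there, and 2 and 5 downstream. Without the day 14 control of replicate 2, 1 gene passed downstream at day 5; without downstream replicate 3 of day 14, both added after seeing the data, 1 passed at the day 14 anastomosis. Slide as a random block could not be fitted, and scan day was used instead. The cause of these changes was not tested. For the fits with samples left out, with another block rule or with the mean of probes, this section gives no share of all features. Those counts show only how the number of passing genes moved with the processing. IFNA1, IFNE and IRF8 were near background in many samples, which limits what their values can show.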
